A study of Mus musculus with 2 samples.

Results

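The D cyclins and the inhibitors of their kinases were followed in G1E-ER4 cells, a mouse erythroid line, after 14 h in 10 nM 17beta-estradiol. The genes were taken by name from a list of 3 D cyclin genes (Ccnd1, Ccnd2, Ccnd3), 3 CIP/KIP inhibitor genes (Cdkn1a, Cdkn1b, Cdkn1c) and 4 INK4 inhibitor genes (Cdkn2a, Cdkn2b, Cdkn2c, Cdkn2d). All 10 were found once each among 42462 named genes, with 37 annotated transcripts. G1E-ER4 derives from G1E cells, which lack GATA1, and carries GATA1 fused to the part of the estrogen receptor that binds hormone, a protein that is active in the presence of estradiol. PolyA RNA was sequenced as 2 paired-end libraries, numbered as biological replicates 1 and 2 of 1 group. Their labels point to a single biosample record, and part of their spread could therefore be technical. No uninduced or earlier sample was analysed here, and the values are therefore levels at 14 h and not responses to estradiol.

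D-type cyclins bind the kinases CDK4 and CDK6 early in the cell cycle, and the active kinases phosphorylate the retinoblastoma protein and so free E2F factors. INK4 proteins bind CDK4 and CDK6 themselves, while CIP/KIP proteins bind cyclin and kinase together and chiefly restrain CDK2. In mouse erythroblasts cyclin D3 is known to set how many divisions precede maturation, and the inhibitors p18 (Cdkn2c) and p27 (Cdkn1b) are known to be present as red cell precursors leave the cycle.

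The expected counts, estimated fragment numbers that need not be whole, summed to 38395481 in replicate 1 and 60097379 in replicate 2, so replicate 2 was 1.57 times as deep. Erythroid identity was checked with 10 markers, of which 9 reached 1 TPM in both libraries. Gata1 is among them but is no check of identity, because its reads include those of the added GATA1 fusion. TPM is the number of transcripts of a gene per 1000000 transcripts and is corrected for length. The erythroid markers summed to 23016.5 TPM in replicate 1 and 74371 TPM in replicate 2, mostly from the globin genes Hba-a1 (7118 and 21029 TPM) and Hbb-bs (13158 and 49652 TPM). Of the 10 markers 8 were lower in replicate 1, while Klf1 (1422 and 754 TPM) and Tfrc (22.0 and 17.1 TPM) were higher there. The 8 granulocyte and macrophage markers summed to 0.07 TPM in each library, with Elane, Ctsg, Itgam, Adgre1, Ly6g and S100a8 at 0 counts. The 5 megakaryocyte markers summed to 7.81 and 9.29 TPM in replicates 1 and 2. Of these, 2 reached 1 TPM in both, Itga2b (4.84 and 6.09 TPM) and Gp9 (2.52 and 2.78 TPM). In the same order the 5 lymphoid markers summed to 0.23 and 1.56 TPM and the 3 mast cell markers to 0.15 and 0 TPM. The 5 fibroblast and endothelial markers summed to 0.06 and 0.02 TPM.

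Among the expressed members, Ccnd3, Cdkn1a and Cdkn2c have transcripts from annotated starts over 500 bases apart, and the regions around 2 starts of each are shown first because the isoform results turn on transcripts that begin near them. Each sequence runs 5′ to 3′ from 250 bases before to 50 bases after a RefSeq start on GRCm38.p6. Capitals mark the words AGATAA or AGATAG or TGATAA or TGATAG, which GATA factors bind, and CCNCNCCC, a CACCC-type word of the kind KLF factors bind, on either strand. The first window of Ccnd3 is chr17:47504801-47505100 on the plus strand and the second chr17:47593217-47593516. Those of Cdkn1a are chr17:29090729-29091028 and chr17:29093519-29093818 on the plus strand, and those of Cdkn2c are chr4:109666707-109667006 and chr4:109665323-109665622 on the minus strand.
Ccnd3 upstream start: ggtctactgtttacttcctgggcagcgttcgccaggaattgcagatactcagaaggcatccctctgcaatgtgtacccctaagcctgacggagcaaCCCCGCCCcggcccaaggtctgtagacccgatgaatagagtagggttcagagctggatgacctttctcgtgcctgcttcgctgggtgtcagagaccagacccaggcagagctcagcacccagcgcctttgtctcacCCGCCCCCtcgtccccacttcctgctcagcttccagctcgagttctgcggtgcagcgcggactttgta
Ccnd3 downstream start: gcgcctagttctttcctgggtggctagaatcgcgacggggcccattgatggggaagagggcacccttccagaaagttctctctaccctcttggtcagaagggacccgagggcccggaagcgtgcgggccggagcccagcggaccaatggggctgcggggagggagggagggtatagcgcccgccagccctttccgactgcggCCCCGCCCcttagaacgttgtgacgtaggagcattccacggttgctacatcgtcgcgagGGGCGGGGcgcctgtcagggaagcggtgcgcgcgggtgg
Cdkn1a upstream start: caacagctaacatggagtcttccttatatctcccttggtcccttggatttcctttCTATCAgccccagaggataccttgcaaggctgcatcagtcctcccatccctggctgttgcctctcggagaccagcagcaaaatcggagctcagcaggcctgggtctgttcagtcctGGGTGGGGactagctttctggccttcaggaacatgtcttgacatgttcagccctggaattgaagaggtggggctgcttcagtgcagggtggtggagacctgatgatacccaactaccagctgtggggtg
Cdkn1a downstream start: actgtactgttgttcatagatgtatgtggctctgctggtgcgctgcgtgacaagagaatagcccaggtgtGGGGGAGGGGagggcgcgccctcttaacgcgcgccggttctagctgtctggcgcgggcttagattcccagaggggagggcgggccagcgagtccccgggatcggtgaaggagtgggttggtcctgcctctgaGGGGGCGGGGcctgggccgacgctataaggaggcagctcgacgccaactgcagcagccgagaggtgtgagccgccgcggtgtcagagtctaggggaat
Cdkn2c upstream start: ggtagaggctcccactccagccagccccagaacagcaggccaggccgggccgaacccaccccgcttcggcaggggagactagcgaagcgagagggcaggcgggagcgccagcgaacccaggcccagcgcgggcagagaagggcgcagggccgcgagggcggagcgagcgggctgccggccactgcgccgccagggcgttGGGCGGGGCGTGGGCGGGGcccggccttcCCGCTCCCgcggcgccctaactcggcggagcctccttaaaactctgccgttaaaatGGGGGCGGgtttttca
Cdkn2c downstream start: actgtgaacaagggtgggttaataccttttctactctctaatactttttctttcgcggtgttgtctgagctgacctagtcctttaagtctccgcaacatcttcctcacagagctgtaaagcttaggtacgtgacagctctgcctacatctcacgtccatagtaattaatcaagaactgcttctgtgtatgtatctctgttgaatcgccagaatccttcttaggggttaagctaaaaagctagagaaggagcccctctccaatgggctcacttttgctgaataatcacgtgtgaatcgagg

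RefSeq windows were found for 7 of the 10 genes, 11 windows in all. A GATA word was present in 1 of the 11, the upstream Cdkn1a window, as CTATCA on the strand shown, beginning at position -195 counted from the start base as 0. Of 32817 mouse promoter windows of the same length, 29.8% held such a word. The CCNCNCCC word was present in 10 of the 11 windows, against 49.5% of all windows, and the GC box GGGCGG, which overlaps it in part, in 9 of the 11, against 35.6%. The exception to the CCNCNCCC word was the downstream Cdkn2c window, whose GC content was 44.0%, against 73.3% in the upstream Cdkn2c window. TATAAA and the STAT word TTCNNNGAA, searched on both strands, were in 0 of the 11 windows, against 13.6% and 8.29% of all windows. These matches describe the letters of the windows and are not evidence of binding.

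Of the 10 genes 6 were expressed, with means from 23.8 TPM to 1590.3 TPM. The threshold for an expressed gene was 1 TPM in each library, which 37.6% of 21461 nuclear protein-coding genes reached. The expressed members were Ccnd3, Cdkn2c, Cdkn1a, Cdkn1b, Ccnd2 and Cdkn2d, in order of mean TPM. No read was assigned to Ccnd1, Cdkn2a or Cdkn2b in either library, as was so for 39.7% of the coding genes, and Cdkn1c had 6 counts in replicate 1 and 0 in replicate 2. A count of 0 allows up to 3 counts, which is 0.0781 per 1000000 counts in replicate 1 and 0.0499 in replicate 2, for counting error only.

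**Figure D1:**
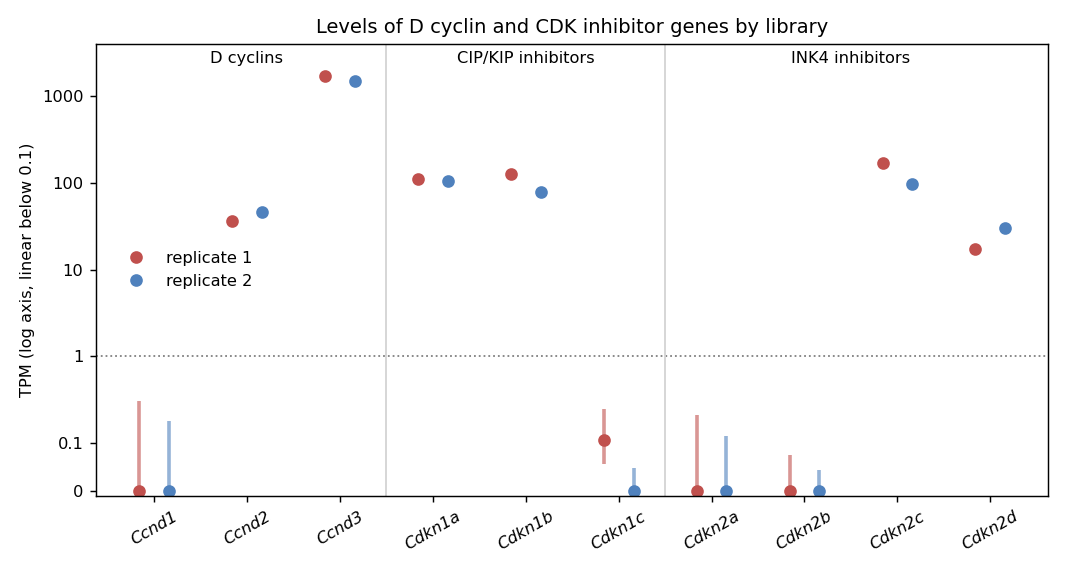
TPM of each gene in replicate 1 (left point of each pair) and replicate 2 (right point), on a log axis that is linear below 0.1. Vertical lines are the deposited TPM intervals, too short to see for the 6 expressed genes, and the dotted line is 1 TPM. Ccnd3 stands above 1000 TPM in both libraries, 5 genes lie between 10 and 200 TPM, and 4 lie near 0.

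Among the D cyclins nearly all message was Ccnd3. Ccnd3 (ENSMUSG00000034165, chromosome 17, 47505051 to 47599691, plus strand) stood at 1701.60 TPM in replicate 1 and 1478.98 TPM in replicate 2, from 92744 and 132942 counts, or 1590.3 ± 157 TPM (SD, n = 2). It ranked 79th in both libraries among coding genes, with 99.6% of them below it. Ccnd2 (ENSMUSG00000000184, chromosome 6, 127125162 to 127152193, minus strand) stood at 36.65 TPM in replicate 1 and 46.43 TPM in replicate 2, from 6196 and 14005 counts. Its mean was 41.5 ± 6.92 TPM, and the values of the 2 genes did not overlap. Ccnd3 made up 97.9% of D cyclin TPM in replicate 1 and 97.0% in replicate 2, and Ccnd2 2.11% and 3.04%. Ccnd1 (ENSMUSG00000070348, chromosome 7, 144929931 to 144939925), the D cyclin best known from fibroblasts and epithelia, was at 0 TPM, and the deposited interval ended at 0.306 TPM in replicate 1 and 0.179 TPM in replicate 2. Exons of LTO1, on the opposite strand, cover 1100 bases of Ccnd1 exons, and LTO1 had 309 and 851 counts while Ccnd1 had none.

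The size of the gap between the D cyclins depended on the length used. By TPM, Ccnd3 was 46.4-fold above Ccnd2 in replicate 1 and 31.9-fold in replicate 2. Counts per kilobase of the longest deposited transcript do not depend on how reads are shared between transcripts. Ccnd2 has a single deposited transcript, of 5701 bases. The longest of Ccnd3, of 3858 bases, is a retained-intron form with 0.59% and 0.63% of its TPM. The leading form has 1977 bases, so this scale lowers Ccnd3. In counts per kilobase the ratio was 22.1 in replicate 1 and 14.0 in replicate 2. On that scale Ccnd3 still made up 95.7% and 93.3% of the D cyclins. The processed copy Ccnd3-ps, which could take reads from Ccnd3, had 7 and 8 counts. Bysl lies on the opposite strand and shares 361 exon bases with Ccnd3, with 6155 and 10682 counts, and whether strand was used in counting is not given in the sources used here.

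The CIP/KIP message was divided between Cdkn1a and Cdkn1b. Cdkn1a (ENSMUSG00000023067, chromosome 17, 29090976 to 29100727, plus strand), which encodes p21, a known target of p53, stood at 110.52 TPM in replicate 1 and 105.77 TPM in replicate 2, from 2708 and 4372 counts. Its mean was 108 ± 3.36 TPM, the smallest relative spread of the expressed members. Cdkn1b (ENSMUSG00000003031, chromosome 6, 134920401 to 134925513, plus strand), which encodes p27, stood at 127.09 TPM in replicate 1 and 79.58 TPM in replicate 2, from 9053 and 10509 counts, with a mean of 103 ± 33.6 TPM. By TPM the 2 genes changed places between the libraries, and their ranges overlapped. Cdkn1a was 46.5% of the family TPM in replicate 1 and 57.1% in replicate 2. In counts per kilobase of the longest transcript Cdkn1a was 0.713 and 0.991 times Cdkn1b, so Cdkn1b was the higher gene in both. Cdkn1c (ENSMUSG00000037664, chromosome 7, 143458339 to 143461050), which encodes p57 and is imprinted, stood at 0.11 TPM in replicate 1 and 0 TPM in replicate 2, under 0.05% of the family in each.

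Among the INK4 genes Cdkn2c led and Cdkn2d followed. Cdkn2c (ENSMUSG00000028551, chromosome 4, 109660876 to 109667189, minus strand), which encodes p18, stood at 170.65 TPM in replicate 1 and 97.99 TPM in replicate 2, from 12053 and 12028 counts, with a mean of 134 ± 51.4 TPM. Cdkn2d (ENSMUSG00000096472, chromosome 9, 21288410 to 21291407, minus strand), which encodes p19 of the INK4 group, stood at 17.41 TPM in replicate 1 and 30.11 TPM in replicate 2, from 596 and 1827 counts, with a mean of 23.8 ± 8.98 TPM. Cdkn2c was the higher gene in both libraries, 9.80-fold in replicate 1 and 3.25-fold in replicate 2. Its share of INK4 TPM was 90.7% in replicate 1 and 76.5% in replicate 2. Cdkn2a (ENSMUSG00000044303, chromosome 4, 89274471 to 89294653), which encodes both p16 and, from another first exon, the p53 regulator ARF, had no count on either of its 2 transcripts. The neighbouring Cdkn2b (ENSMUSG00000073802, chromosome 4, 89306299 to 89311039), which encodes p15, had none either.

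**Figure D2:**
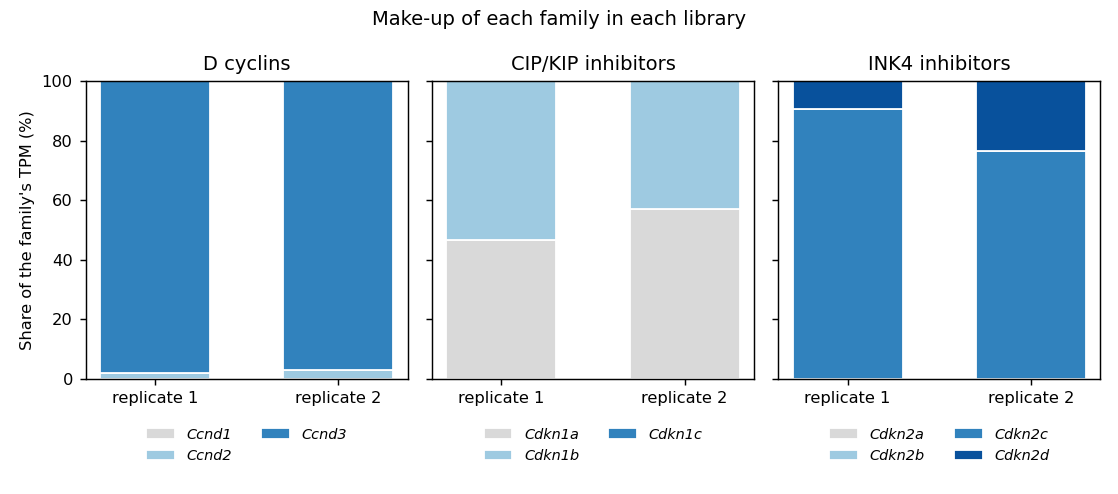
Share of each family's summed TPM (vertical axis, percent) held by each gene, with replicate 1 left of replicate 2 in each panel. Ccnd3 fills 97.9% and 97.0% of the D cyclin bars, Cdkn1a and Cdkn1b divide the CIP/KIP bars, and the Cdkn2d part of the INK4 bars is 9.26% in replicate 1 and 23.5% in replicate 2.

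Summed over families, the D cyclins had 1738 TPM in replicate 1 and 1525 TPM in replicate 2. The CIP/KIP genes had 238 and 185 TPM, and the INK4 genes 188 and 128 TPM. D cyclin TPM was thus 4.08 times the summed inhibitor TPM in replicate 1 and 4.87 times in replicate 2, a ratio of messages that says nothing of protein. The order CIP/KIP above INK4 was the same in both libraries by TPM, at ratios of 1.26 and 1.45. In counts per kilobase of the longest transcript it was turned round, with 191 and 146 for CIP/KIP against 299 and 200.4 for INK4. That scale divides Cdkn1b by 4552 bases, the length of a form with 4.34% and 8.82% of its TPM. It divides Cdkn1a by 1910 bases, the length of a form with 17.52% and 14.42%. For Cdkn2c the longest form, of 2471 bases, is also the leading one, so the scale lowers CIP/KIP more than INK4.

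The order of single genes was firm only in part. Of the 5 pairs of neighbours among the 6 expressed genes, 3 had ranges that did not overlap, namely Ccnd3 above Cdkn2c, Cdkn1b above Ccnd2, and Ccnd2 above Cdkn2d. Ccnd3 exceeded Cdkn2c 9.97-fold in replicate 1 and 15.1-fold in replicate 2. The ranges of Cdkn2c, Cdkn1a and Cdkn1b, with means from 103 to 134 TPM, overlapped. Compared by TPM within each library, Cdkn2c was above Cdkn1b in both, 1.34-fold in replicate 1 and 1.23-fold in replicate 2, while Cdkn1a changed places with each of them. With 2 values against 2 there is no smaller p than 0.333 in an exact two-sided permutation test, so no test was made. In counts per kilobase of the longest transcript 3 pairs again did not overlap. Ccnd3 above Cdkn2c and Ccnd2 above Cdkn2d were kept, and Cdkn2c above Cdkn1b took the place of Cdkn1b above Ccnd2. Cdkn2c then stood 2.45- and 2.11-fold above Cdkn1b, while Cdkn1b, Cdkn1a and Ccnd2 overlapped. Within each library Cdkn1a was then below both Cdkn2c and Cdkn1b. As above, that scale divides Cdkn1b and Cdkn1a by the lengths of minor forms.

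The libraries were next compared gene by gene, since the spread between them limits every level above. Expected counts were scaled with the TMM method, and a gene counted as different past 1.5-fold, which 46.3% of 11230 genes with at least 10 counts were, 19.5% higher in replicate 1 and 26.8% higher in replicate 2. Of the 6 members with enough counts 2 passed, both INK4 genes and in opposite directions. With 6 members this count does not set them apart from all genes. Cdkn2c had 322 scaled counts per 1000000 in replicate 1 and 195 in replicate 2, a ratio of 1.65 (95% exact Clopper-Pearson interval 1.61 to 1.70, counting error only). Cdkn2d had 15.9 in replicate 1 and 29.6 in replicate 2, a ratio of 0.538 (0.490 to 0.591). The median absolute log2 ratio was 0.48 over the 6 members and 0.54 over all genes counted. With 1 library on each side these ratios compare the libraries and have no replicate check, and no p-value is given.

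The other 4 members differed less. Cdkn1b had 242 scaled counts per 1000000 in replicate 1 and 170 in replicate 2, a ratio of 1.42. By TPM its ratio was 1.60, so that 3 of the 6 passed on that scale, Cdkn1b and Cdkn2c higher in replicate 1, as 24.6% of all genes were, and Cdkn2d higher in replicate 2, as 23.3% were, together 47.9% of all genes. Ccnd2 had 166 in replicate 1 and 227 in replicate 2, a ratio of 0.730, the only expressed member besides Cdkn2d that was lower in replicate 1. Ccnd3 had 2480 in replicate 1 and 2155 in replicate 2, a ratio of 1.15. Cdkn1a had 72.4 in replicate 1 and 70.9 in replicate 2, a ratio of 1.02 whose counting interval of 0.974 to 1.07 included 1. The summed erythroid markers, but not Klf1 and Tfrc, were also lower in replicate 1, and their part in these ratios was not tested.

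**Figure D3:**
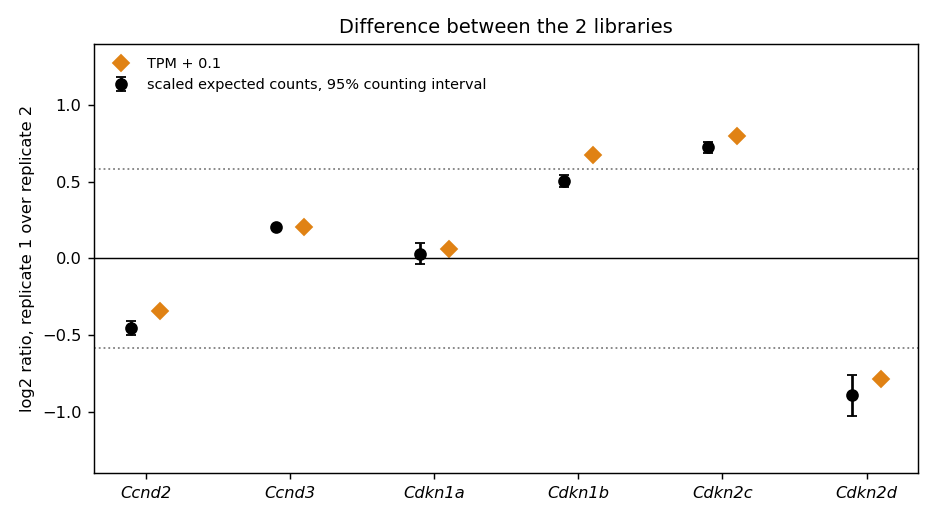
Log2 ratio of replicate 1 to replicate 2 for the 6 members with at least 10 counts, from scaled expected counts (circles, with 95% counting intervals) and from TPM + 0.1 (diamonds), with dotted lines at 1.5-fold. Cdkn2c lies above the upper line and Cdkn2d below the lower line on both scales, and Cdkn1b crosses the upper line by TPM only.

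Most transcripts of these genes held few or no reads. Of the 37 transcripts 26 had any count, 19 had counts in both libraries, and 9 made up at least 1% of their gene's TPM in both. The isoform percent used here is the deposited share of a transcript in its gene's TPM. Ccnd2, Cdkn2b and Cdkn2d each have 1 deposited transcript. The 4 expressed members with 2 or more transcripts each had the same leading transcript in both libraries, as did 76.2% of 6471 such genes. In each member it held most of the gene's TPM in both libraries, so its range could not overlap that of the next.

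Ccnd3 has 21 deposited transcripts, and 1 of them, Ccnd3-205, held most of the message. It starts at base 47593470, 88419 bases downstream of the first annotated start and 3 bases from the RefSeq start of the second window above, has 5 exons and encodes 292 codons. Its isoform percent was 94.78% in replicate 1 and 82.74% in replicate 2, or 88.8 ± 8.51% (SD, n = 2). The 13 transcripts that start in the upstream region together held 0.0335% of Ccnd3 TPM in replicate 1 and 0.613% in replicate 2, from 21.7 and 370 expected counts. Full-length upstream forms such as Ccnd3-201 also encode 292 codons, share 1793 exon bases with Ccnd3-205 and differ in 184 and 206 bases, so most reads of either form cannot separate them.

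The second Ccnd3 transcript begins inside the gene. Ccnd3-208, with 4 exons and an annotated coding part of 96 codons, starts 2598 bases downstream of Ccnd3-205. It held 4.02% in replicate 1 and 14.70% in replicate 2, from 1632 and 9169 expected counts. The difference between the libraries was nearly as large as that of Ccnd3-205 and opposite in sign. Shares of a gene have a fixed total, so these differences are not independent. Ccnd3-208 shares 783 exon bases with Ccnd3-205 and has 148 of its own. The 3′ ends of the 2 transcripts also lie 595 bases apart, so the shares do not isolate the start. Because Ccnd3-208 is short, at 931 bases against 1977, its part of the counts was smaller than its part of the TPM, at 1.76% and 6.90%. The retained-intron transcript Ccnd3-206 held 0.59% and 0.63%.

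**Figure D4:**
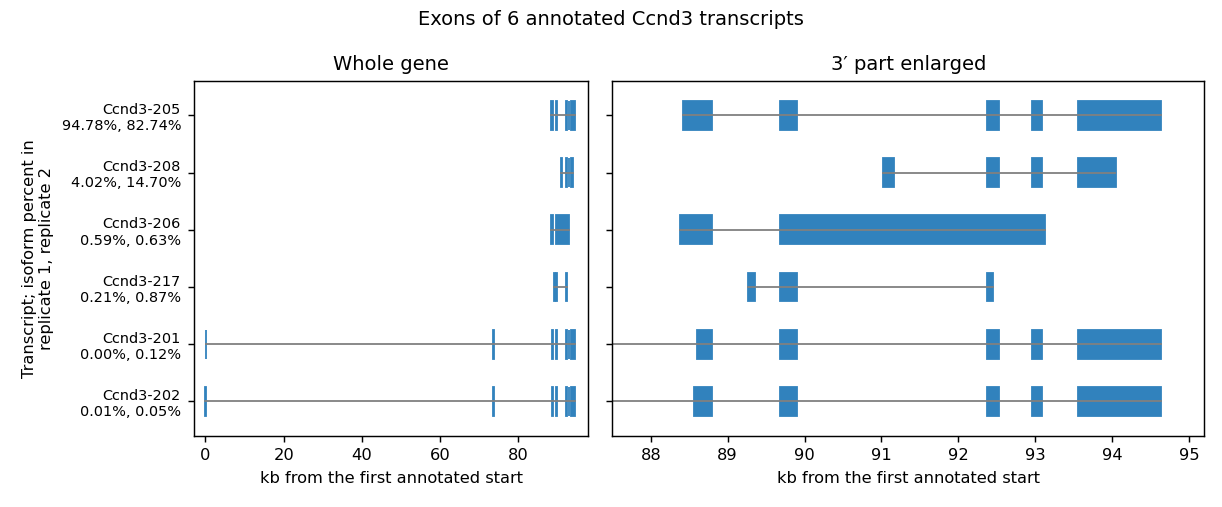
Exons (boxes) of 6 annotated Ccnd3 transcripts against distance from the first annotated start in kb, for the whole gene and enlarged for its 3′ part, with the isoform percent in replicates 1 and 2 under each name. Most reads were placed on Ccnd3-205, which starts 88419 bases downstream. Ccnd3-208, annotated with an internal start and another 3′ end, came second. Ccnd3-201 and Ccnd3-202 with the upstream start held 0.12% or less.

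The Cdkn1a message was divided between transcripts from 2 starts. Cdkn1a-202, which starts at the upstream window shown above, held 82.48% of the gene's TPM in replicate 1 and 85.58% in replicate 2. Cdkn1a-201, which starts 2790 bases downstream, held 17.52% and 14.42%. The ranges of the transcripts did not overlap, which follows from shares of a fixed total with the same transcript ahead in both libraries. In expected counts the shares were closer, with 1668 and 2917 on Cdkn1a-202 against 1040 and 1455 on Cdkn1a-201, that is 61.6% and 66.7% against 38.4% and 33.3%. The transcripts encode the same 159 codons, and they also differ at the 3′ end by 1021 bases, so the shares do not isolate the start. Their deposited lengths of 748 and 1910 bases differ from those in the annotation used here, and the short length of Cdkn1a-202 raises its TPM.

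In Cdkn2c the upstream-started form was nearly alone. Cdkn2c-202 held 99.70% in replicate 1 and 95.69% in replicate 2. Cdkn2c-201, which starts 1817 bases downstream at the GC-poor window shown above, held 0.30% and 4.31%, from 15.2 and 218 expected counts. Both end at the same base and encode 168 codons, so they differ in their 5′ parts. The RefSeq start of the upstream window lies 433 bases inside Cdkn2c-202. Cdkn1b has 1 annotated start, and its form of 3 exons, Cdkn1b-201, held 95.66% and 91.18%. Cdkn1b-202, of 2 exons, keeps 2159 further bases within the same span and the same 197 codons, and held 4.34% and 8.82%. In Ccnd3, Cdkn1b and Cdkn2c the leading transcript had the larger share in replicate 1, and in Cdkn1a in replicate 2.

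**Figure D5:**
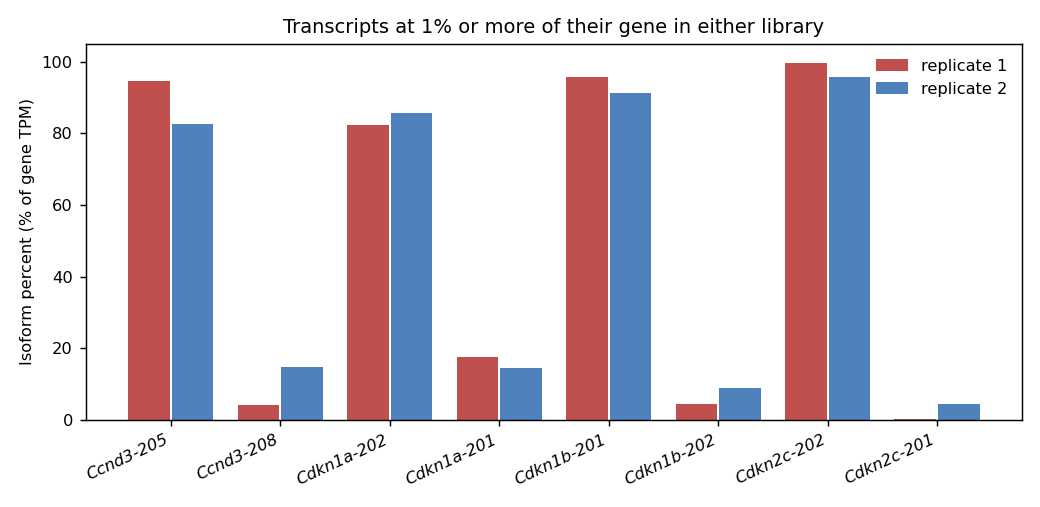
Isoform percent (share of the gene's TPM) of each transcript of Ccnd3, Cdkn1a, Cdkn1b and Cdkn2c that reached 1% in either library, with replicate 1 left of replicate 2. One transcript holds over 80% of each gene, and the second forms of Ccnd3, Cdkn1b and Cdkn2c stand higher in replicate 2.

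The partners of these proteins were expressed almost without exception. Of 42 measured genes on a list of kinases, cyclins, pocket proteins, E2F factors, turnover factors and regulators, 41 were expressed by the same threshold, 32 of them at 5 TPM or more in each library. The list's median was 34.5 TPM, against 32.7 TPM for the 10 members and 0.03 TPM for all nuclear coding genes, most of which were not expressed. Coding genes at 1 TPM or more in a library had a median of 18.1 TPM in replicate 1 and 18.5 TPM in replicate 2. The exception was Cdk7, the kinase that activates other CDKs, at 0.64 TPM in replicate 1 and 1.24 TPM in replicate 2. It was not without reads, with 146 and 502 counts. Mnat1, of the same group, passed the threshold with fewer, 112 and 102, because TPM is corrected for the length of the transcripts on which reads were placed. Which transcripts lie behind the low Cdk7 value was not examined. In scaled counts 9 of the 42 were past 1.5-fold higher in replicate 1 and 10 higher in replicate 2, near the shares of all genes given above. By TPM 16 of the 42 were past it higher in replicate 1, above the 24.6% of all genes, and 10 higher in replicate 2, so the balance between the libraries depended on the scale.

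Of the kinases that D cyclins bind, Cdk4 was abundant and Cdk6 scarce. Cdk4 stood at 751.33 TPM in replicate 1 and 1207.52 TPM in replicate 2, and Cdk6 at 6.80 and 3.84 TPM. Summed D cyclin TPM was 2.29 times that of both kinases in replicate 1 and 1.26 times in replicate 2, and summed INK4 TPM 0.248 and 0.106 times. Such ratios depend on the length used. Cdk4 was 0.442 and 0.816 times Ccnd3 by TPM, and 0.274 and 0.482 times in counts per kilobase of the longest transcript. The kinase chaperone gene Cdc37 stood at 284 and 239 TPM. Of the cyclins acting later, Ccna2 stood at 904 and 534 TPM and Ccne1 at 644 and 214 TPM, higher in replicate 1 by 1.68- and 2.06-fold in scaled counts. The other genes of that group past 1.5-fold, named after their values were seen, were lower in replicate 1, with ratios of 0.236 for Cdk1, 0.612 for Ccne2 and 0.614 for Ccnb2.

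Targets and regulators lay over a wide range. The retinoblastoma gene Rb1 stood at 31.6 TPM in replicate 1 and 19.6 TPM in replicate 2 and its relative Rbl1 at 13.0 and 8.14 TPM. E2f2 stood at 125 and 93.6 TPM and E2f1 at 133 and 80.1 TPM. The phosphatase genes Cdc25b and Cdc25a, whose products activate CDKs, stood at 67.5 and 96.0 TPM and at 51.8 and 33.1 TPM. Ccnh, the cyclin of CDK7, stood at 18.4 and 29.9 TPM and its partner Mnat1 at 3.03 and 1.44 TPM.

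Genes for turnover of the members had medians of 8.90 TPM for the inhibitors and 24.6 TPM for the D cyclins. Cks1b, a cofactor in the destruction of p27, stood at 64.5 TPM in replicate 1 and 79.0 TPM in replicate 2, and the ligase scaffold Cul1 at 8.01 and 10.2 TPM. Skp2, which recognises p27 for destruction and is named here after its values were seen, stood at 1.17 and 2.38 TPM. For D cyclin turnover Ambra1 stood at 30.6 and 28.4 TPM and Fbxo31 at 37.0 and 20.0 TPM. Of the regulators the erythroid factor genes led, with Gata1 at 1132 and 2656 TPM and Klf1 at 1422 and 754 TPM, and reads of the added GATA1 fusion and of the cell's own gene cannot be told apart in the Gata1 value.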

How the data were processed

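Both libraries are of polyA RNA from estradiol-treated G1E-ER4 cells. Per the deposited notes the build is mm10 and the annotation GENCODE M4; which aligner and settings were used is not given in the sources used here. The authors, per the file headers with their RSEM-style names, deposited expected counts, TPM, FPKM, posterior mean TPM with interval bounds (a signal unit here, level not stated), and isoform percent. The interval lies around the posterior mean, and for some members the deposited TPM is above it, as for Ccnd3 (1649.9 to 1674.2 TPM in replicate 1).

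Symbols, types and coordinates came from GENCODE M21 on GRCm38 by identifier; 29 of the 37 members' transcripts had the deposited length there. The 26345 rows of other identifiers, with 2 counts in replicate 1 and 0 in replicate 2, were left out. Expected counts were rounded and scaled with TMM (edgeR 4.0.16, R 4.3.3), and DESeq2 1.42.0 gave an alternative scaling. The scaling was first tried on simulated counts that held only counting error and folds put in. Those counts lacked the wider spread between the libraries, so the trial cannot show how the scaling does with it. Ratios over all genes used 0.5 added counts, or 0.1 added TPM. Starts over 500 bases apart were counted separately. Promoters are RefSeq's, GRCm38.p6.

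The members, lists, thresholds and naming rule (all members, the 2 highest genes of each role group, Cdk4 and Cdk6) were chosen with earlier results of these data known. With 2 libraries, likeness of patterns was not computed.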

Additional observations from a re-analysis of the deposited data

How the results depend on the processing

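Without replicate 1 or without replicate 2 the count of expressed members stayed at 6, the 4 leading transcripts were the same, and the shares ranged from 96.96% to 97.9% for Ccnd3 of D cyclins, 46.5% to 57.1% for Cdkn1a of CIP/KIP and 76.5% to 90.7% for Cdkn2c of INK4, and the median of the members from 27.0 to 38.3 TPM. That median, 32.7 TPM, was 52.7 in counts per kilobase of the longest transcript and 41.9 when globin, mitochondrial and ribosomal protein genes were left out of the total; the Ccnd3 share was 94.5% per kilobase. These scales differ by construction. At a threshold of 2-fold 0 members differed between the libraries, against 2 at 1.5-fold; upper quartile scaling and TPM each added Cdkn1b and no filter on low counts added Cdkn1c, giving 3. Cdkn1a over Cdkn1b had a mean log2 ratio of 0.10 ± 0.43 by TPM and -0.25 ± 0.34 per kilobase. Conditions could not be paired because there is 1 group, while ratios of 2 genes were taken within each library. Depth limits the genes at 0 counts, where no difference was detectable, and Cdkn1c, whose ratio rests on 6 and 0 counts.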

Other observations

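Genes that share part of a name with the members were chosen after their values were seen. Ccndbp1, whose product binds D cyclins, stood at 5.26 TPM in replicate 1 and 18.9 TPM in replicate 2, from 175 and 1041 counts, a ratio of 0.277 in scaled counts and further from 1 than that of any expressed member. Cdkn3, a phosphatase that acts on CDKs and is unrelated to the INK4 and CIP/KIP families, stood at 4.62 TPM in replicate 1 and 9.23 TPM in replicate 2, a ratio of 0.468. Cdkn2aipnl stood at 50.7 and 45.2 TPM and Cdkn2aip at 4.95 and 3.40 TPM, ratios of 1.04 and 1.35.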
